A study of Drosophila melanogaster with 11 samples.

Results

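The comparison described here is larval fat body of PGAM5 null Drosophila melanogaster with RU486 over the same genotype without RU486. Its members are the genes listed at 10 FPKM (fragments per kilobase of transcript scaled to the reads of the library) or more in either of these libraries, 5133 of the 15603 genes in the table. Both libraries came from L3 larvae of 1 cross, PGAM5 null with the DaGeneSwitch driver by PGAM5 null with UAS-dOTC. Larvae of the tested library received RU486 and the others none. The wild-type larvae set beside them came from DaGeneSwitch by UAS-dOTC, so they carried the same driver and transgene with Pgam5 intact, with RU486 or without. A PGAM5 null adult pair of the same cross as the null larvae, with and without RU486, is used at the end. GeneSwitch is a Gal4 derivative that RU486 activates, and daughterless drives it in nearly all tissues, so the transgene was not confined to the fat body. The transgene encodes ΔOTC (dOTC in the labels), a misfolding form of human ornithine transcarbamylase that accumulates in mitochondria. Every sample pooled the dissected tissue of several animals, and each condition has 1 library. No differences between animals or dissections could therefore be estimated, and no test was run. No larvae given RU486 without the transgene belong to the series, so the drug and ΔOTC cannot be told apart. The human transgene is not among the genes of the table, and its induction was not analysed here.

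The insect fat body combines functions of liver and adipose tissue. It stores triglyceride and glycogen, secretes the larval serum storage proteins and lipoproteins into the hemolymph, and makes antimicrobial peptides when the Toll or Imd pathway is active. PGAM5 is a mitochondrial phosphatase placed upstream of the ASK1, JNK and FoxO signaling that the study follows, and comparing null larvae with and without induction asks which transcripts differ with mitochondrial stress when that phosphatase is missing. Ecdysone, the steroid that drives molting and metamorphosis, also changes the larval fat body near the end of the third instar.

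Pgam5 (FBgn0023517) was listed at 0.289 FPKM in null larvae with RU486 and 0.577 FPKM in null larvae without it, against 13.3 and 16.8 FPKM in wild-type larvae with and without RU486. The genotype labels and this transcript therefore go together in all 4 larval libraries. Fat body transcripts were also abundant. The 15 fat body markers summed to 199110 FPKM with RU486 and 153477 FPKM without it, and none was at 0 in either null library. The 14 salivary gland markers summed to 39498 FPKM with RU486 and 171613 FPKM without it. In the null library without RU486 they thus exceeded the fat body markers. Estimated depth was 3930000 fragments with RU486 and 5760000 without, against 6240000 to 8770000 in the wild-type larval libraries. At 10 FPKM a 1 kb transcript then rests on 31.8 and 47.8 fragments in the null libraries. Markers of other tissues were present in every larval library and are given beside the results they move with.

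Of the 5133 members, 3771 reached 10 FPKM in both libraries, 305 only with RU486 and 1057 only without it. The median ratio of the 5036 members above 0 in both libraries was 0.812, or -0.30 on the log2 scale. Ratios below are divided by this median and called scaled ratios, and a gene is called higher or lower only where its ratio passed 2-fold both as listed and after scaling. By that rule 307 genes were higher with RU486, 6.10% of the 5036, and 513 were lower, 10.2%. At 3-fold 145 genes were higher, 2.88%, and 292 were lower, 5.80%. These percentages are the background for the gene groups below. Intervals beside a scaled ratio are exact conditional binomial intervals at 95% on estimated fragment numbers. They cover counting error only, and genes with no matched or too short a transcript have none.

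**Figure D1:**
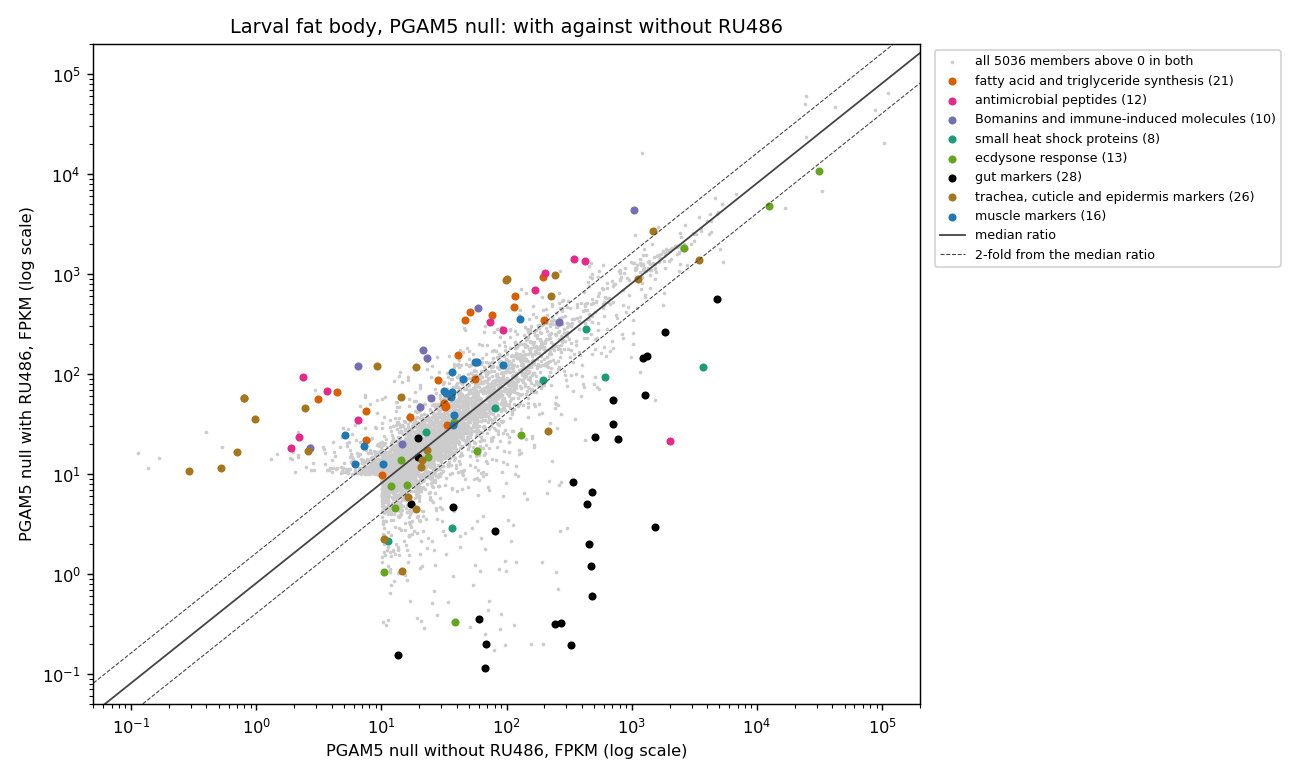
Each point is a member, with its FPKM without RU486 on the x axis and with RU486 on the y axis, both on log scales, in 1 library each. The solid line is the median ratio of 0.812 and the dashed lines lie 2-fold from it. Most lipid synthesis and immune peptide genes sit above the band, and most gut markers below it.

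The share of called genes depended on level. Among members with a mean of 10 to 30 FPKM, 3.51% were higher and 6.98% lower, and among those with a mean of 100 to 1000 FPKM, 11.3% were higher and 14.3% lower. Below a mean of 10 FPKM 20.3% were lower. Of the 1057 members that reached 10 FPKM only without RU486, 978 were above 0 in both libraries, and 313 of those were called lower. By the filter none of these could be called higher. Genes of the 48 gene lists made up 38.1% of the higher calls and 14.8% of the lower calls, so most called genes of either direction belong to no list. The share of all tested members in these lists is not given here, so neither percentage has a background.

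Lipid synthesis was the metabolic group with the most higher genes. Of 21 tested genes of fatty acid and triglyceride synthesis 13 were higher and none lower, with a median scaled log2 ratio of 1.92 (1.62 as listed) against 0 over all members by construction. ACC (FBgn0033246), acetyl-CoA carboxylase, which commits acetyl-CoA to fatty acid synthesis, was listed at 66.3 FPKM with RU486 and 4.39 FPKM without, a scaled ratio of 18.6 (interval 16.0 to 21.7). CG3523, the fatty acid synthase FASN1, stood at 349 FPKM with RU486 and 46.4 FPKM without, a scaled ratio of 9.25. Both enzymes of the main synthetic route were thus among the higher genes. Enzymes around the glycerol backbone went the same way. Gpdh, cytosolic glycerol-3-phosphate dehydrogenase, had 418 FPKM with RU486 and 51.1 FPKM without, a scaled ratio of 10.1 (9.13 to 11.1). Gpo-1, its mitochondrial partner, had 56.1 FPKM with RU486 and 3.08 FPKM without, a scaled ratio of 22.4 (16.3 to 31.7). Other called members were ATPCL (ATP citrate lyase), AcCoAS (acetyl-CoA synthase), desat1 (a fatty acid desaturase), Dbi (an acyl-CoA binding protein) and mdy (a diacylglycerol acyltransferase), with scaled ratios of 4.69, 6.24, 5.91, 6.33 and 3.79 in that order. All 21 tested members lay above the median ratio, and 19 were above 1 as listed.

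The wild-type larval pair, which shares no library with the null pair, was listed in the same direction for these genes. There ACC had 110 FPKM with RU486 and 8.35 FPKM without, Gpdh 571 and 109 FPKM, and Gpo-1 165 and 9.67 FPKM, for scaled ratios of 18.2, 7.22 and 23.6. Of 22 list members tested in wild type, 14 were higher, beside a wild-type background of 5.11% higher and 22.0% lower among 5399 genes. Differences between the genotypes have no replicates and were not tested.

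Transport and storage genes were split. Nplp2, annotated as a neuropeptide-like precursor, was listed at 16113 FPKM with RU486 and 1199 FPKM without, a scaled ratio of 16.6. The apolipophorin precursor Rfabg had 1295 FPKM with RU486 and 475 FPKM without, a scaled ratio of 3.36 (3.31 to 3.41), and the lipid transfer particle gene CG15828 (Apoltp) a scaled ratio of 7.23 (6.45 to 8.13). The globin glob1 had 276 FPKM with RU486 and 46.3 FPKM without. NLaz, a lipocalin known as a JNK target, was on the other side, at 5.97 FPKM with RU486 and 93.1 FPKM without, a scaled ratio of 0.0789 (0.0457 to 0.127). In all, 4 of the 10 tested lipoprotein and lipid transport genes were higher and 2 lower. Lipid mobilisation and oxidation was less displaced, with 4 of 23 higher, none lower and a median scaled log2 ratio of 0.55. The peroxisomal acyl-CoA oxidase Acox57D-d led that list with 30.7 FPKM with RU486 and 6.13 FPKM without.

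Carbohydrate genes moved with the lipid genes in smaller numbers. Pyruvate kinase (PyK) was listed at 171 FPKM with RU486 and 49.6 FPKM without, and Pepck, the gluconeogenic phosphoenolpyruvate carboxykinase, at 652 FPKM with RU486 and 142 FPKM without, a scaled ratio of 5.66 (5.38 to 5.97). The transcription factor sugarbabe (sug), known as a sugar-responsive regulator of lipogenic genes, had 47.2 FPKM with RU486 and 13.9 FPKM without. CG33138, the glycogen branching enzyme, had 101 FPKM with RU486 and 33.3 FPKM without. Of the 7 pentose phosphate genes 3 were higher, of 19 glycolytic and lactate genes 4 were higher and 1 lower, and of 16 genes of glycogen, trehalose and sugar handling 4 were higher and 2 lower. The lower ones were the glucose transporter Glut1, at 4.29 FPKM with RU486 and 21.1 FPKM without, and the maltases Mal-A6 and Mal-A1. Malic enzyme (Men), a source of NADPH, had 472 FPKM with RU486 and 114 FPKM without, and the peroxiredoxin Jafrac1 had 265 FPKM with RU486, a scaled ratio of 4.96. Of the whole redox list, which holds Men and Jafrac1, 3 of 23 were higher (the third was the peroxiredoxin Prx3) and 1 lower, with a median scaled log2 ratio of 0.01 (-0.29 as listed).

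**Figure D2:**
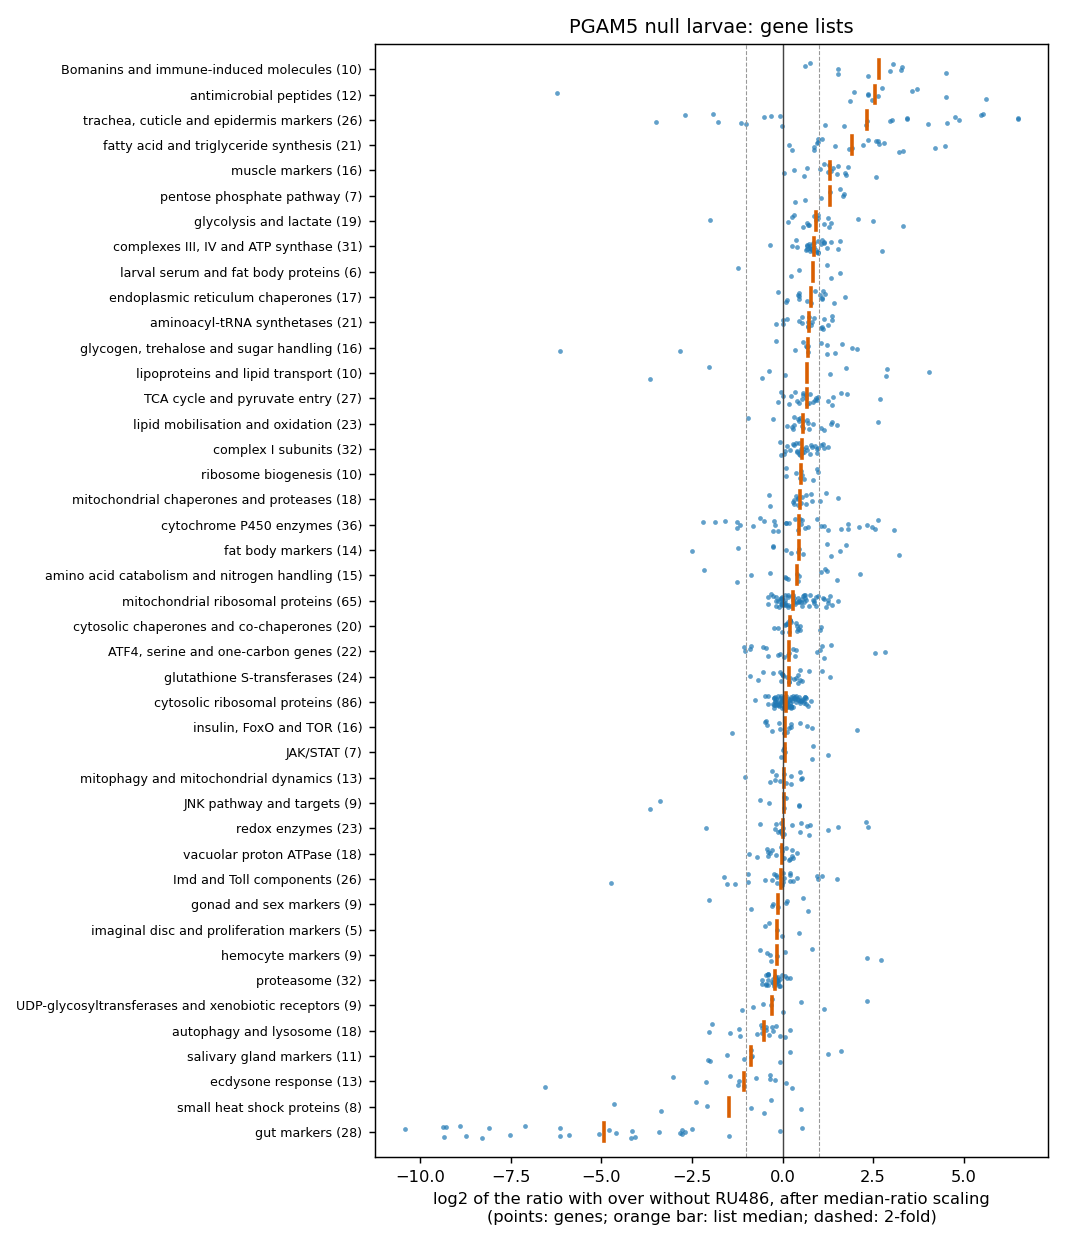
Each row is a gene list with 5 or more tested members (number in brackets), each point a gene, and the orange bar the median of the log2 scaled ratio with over without RU486 in PGAM5 null larvae. Immune peptides, cuticle genes and lipid synthesis have medians of 1.92 or more, and gut markers lie at -4.93.

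Nuclear genes of the respiratory chain were displaced by less than 2-fold in most cases. Complex I had no called gene among 32 tested, with a median scaled log2 ratio of 0.53 (0.23 as listed). Complexes III, IV and ATP synthase had 4 of 31 higher, none lower and a median of 0.86 (0.56 as listed). ATPsyn-beta, the catalytic ATP synthase subunit, was listed at 643 FPKM with RU486 and 264 FPKM without, a scaled ratio of 3.01 (2.87 to 3.15). Cyt-c-p, cytochrome c, had 149 FPKM with RU486 and 27.6 FPKM without, a scaled ratio of 6.67. In the TCA cycle and pyruvate entry list 5 of 27 were higher, among them CG9399 (Mpc2, a subunit of the mitochondrial pyruvate carrier) at 28.0 FPKM with RU486 and 5.38 FPKM without, and the citrate synthase gene kdn at 50.2 and 20.1 FPKM. In wild type the median scaled log2 ratio was 1.03 for complex I, 1.26 for complexes III, IV and ATP synthase and 0.96 for the TCA list.

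Mitochondrial chaperones and proteases, the usual markers of the mitochondrial unfolded protein response, gave 1 called gene of 18. That gene was CG11267, the Hsp10 co-chaperonin, with 159 FPKM with RU486 and 68.6 FPKM without, a scaled ratio of 2.86. Hsp60, the chaperonin it caps, had 85.9 FPKM with RU486 and 46.3 FPKM without, and Hsc70-5, the mitochondrial Hsp70, had 57.7 and 34.6 FPKM. Both passed 2-fold after scaling (2.28 and 2.05) but not as listed (1.85 and 1.67), and so were not called. The list median was 0.47 on the scaled log2 scale and 0.17 as listed. Wild-type larvae had no call among 19 of these genes and a median of 0.02. In the endoplasmic reticulum list 2 of 17 were higher, Pdi (protein disulfide isomerase), at 1214 FPKM with RU486 and 454 FPKM without, and Sec61alpha.

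Small heat shock proteins were lower with RU486. Of 8 tested genes 4 were lower and none higher, with a median scaled log2 ratio of -1.47. Hsp23 was listed at 119 FPKM with RU486 and 3704 FPKM without, a scaled ratio of 0.0394 (0.0352 to 0.0441). Hsp27 had 93.9 FPKM with RU486 and 605 FPKM without, and Hsp67Bc 2.87 and 36.5 FPKM. These 3 genes stand at one chromosomal locus with Hsp67Ba, which was also lower, and several of them are known ecdysone targets as well as heat shock genes. The inducible Hsp70 and Hsp68 list could not be compared as a whole, because 6 of its 7 genes were below 10 FPKM in both null libraries. Its 1 member at 10 FPKM, Hsp68, had 33.7 FPKM with RU486 and 33.2 FPKM without, and in wild type was called lower (scaled log2 ratio -1.08). Hsp83, which is not in that list, had 323 and 191 FPKM and passed 2-fold only after scaling (2.09, and 1.70 as listed). In wild-type larvae Hsp23 had 261 FPKM with RU486 and 2170 FPKM without, also called lower, and 5 of 8 small heat shock genes were lower.

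Ecdysone-responsive genes were lower in the same library. Of 13 tested 7 were lower and none higher, with a median scaled log2 ratio of -1.07. In wild-type larvae 1 of 10 tested was lower and none higher. Over the 10 genes tested in both genotypes the medians were -0.91 in null and -0.53 in wild type. ImpE2, an ecdysone-inducible gene, was listed at 0.335 FPKM with RU486 and 39.0 FPKM without, a scaled ratio of 0.0106 (0.00129 to 0.0384). The nuclear receptor gene Eip78C had 1.05 FPKM with RU486 and 10.5 FPKM without, and the transcription factor broad (br) had 17.2 and 57.4 FPKM. Fbp1, the receptor for larval serum proteins, whose fat body expression depends on ecdysone, had 10804 FPKM with RU486 and 31342 FPKM without. EcR, the ecdysone receptor itself, was not called, with 13.8 FPKM with RU486 and 14.4 FPKM without. Of 11 tested salivary gland markers, a list of another tissue that includes the ecdysone-timed glue genes, 4 were lower (Sgs3, Sgs5, Sgs7 and Sgs8), 1 was higher and 6 were neither, and in wild type none of 11 was called. The higher one, ng1, had 59.7 FPKM with RU486 and 24.0 FPKM without. Sgs7 had 20374 FPKM with RU486 and 103762 FPKM without, and Sgs8 had 6716 and 32962 FPKM. The 14 salivary gland markers, of which Sgs7 gave most of the total, summed to 39498 FPKM with RU486 and 171613 FPKM without, against 61146 and 137003 FPKM in wild type with and without RU486. In bulk tissue, fewer cells of a type and less RNA per cell cannot be told apart. The age of the larvae within the third instar was not measured here, and its part in these values and in those of the metabolic genes was not tested.

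Larval serum proteins did not share that direction. Lsp1beta was listed at 49866 FPKM with RU486 and 24234 FPKM without, and Lsp1gamma at 60298 and 24791 FPKM. Both were called higher. Lsp2 had 47148 FPKM with RU486 and 42106 FPKM without, a scaled ratio of 1.38, and was not called. Lsp1alpha, at 910 FPKM with RU486 and 478 FPKM without, passed 2-fold only after scaling. The wild-type library with RU486 lists Lsp1beta at 0, against 29917 FPKM without, beside 47666 and 29579 FPKM for Lsp1gamma, and no ratio is given because such a 0 can be a failed estimate. Pu, the GTP cyclohydrolase of pteridine synthesis, was lower at 74.4 FPKM with RU486 and 522 FPKM without.

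Autophagy and lysosome genes leaned to the lower side, with 5 of 18 lower, none higher and a median scaled log2 ratio of -0.51. Atg7, an activating enzyme of autophagosome formation, had 7.18 FPKM with RU486 and 36.5 FPKM without. The kinase gene Atg1 had 4.70 FPKM with RU486 and 13.4 FPKM without, and the cathepsin genes CtsB1 and Cp1 had 51.2 and 98.4 FPKM with RU486, against 244 and 329 FPKM without. Mmp1, a matrix metalloproteinase and JNK target, had 1.60 FPKM with RU486 and 20.4 FPKM without. Both glutamine synthetases were lower, Gs1 with 345 FPKM with RU486 and 1022 FPKM without, and Gs2 with 17.1 and 95.8 FPKM.

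The stress signaling genes lay close to the median ratio. Thor, the translation repressor 4E-BP and a FoxO target, had 1080 FPKM with RU486 and 1306 FPKM without, a scaled ratio of 1.02 (0.966 to 1.07). The transcription factor genes foxo (18.2 and 19.1 FPKM with and without RU486), Rel (21.3 and 19.9 FPKM) and crc, the fly ATF4 (254 and 245 FPKM), and the JNK gene bsk (20.8 and 18.7 FPKM) had scaled ratios of 1.17, 1.32, 1.28 and 1.37 in that order. Ask1 (listed as Pk92B), puc, Gcn2, Tsc1 and gig were below 10 FPKM in both libraries and were not members. Of 16 insulin, FoxO and TOR genes 1 was higher (sug) and 1 lower (CG18619, REPTOR-BP), and of 9 JNK genes 2 were lower (NLaz and Mmp1). The medians of these lists were 0.08 and 0.03 on the scaled log2 scale and -0.22 and -0.27 as listed. Genes of serine, asparagine and one-carbon metabolism that ATF4 can regulate had 3 of 22 higher and 2 lower. asparagine-synthetase stood at 83.8 FPKM with RU486 and 14.6 FPKM without, and aay, phosphoserine phosphatase, at 120 and 25.2 FPKM. Their median was 0.17 scaled and -0.13 as listed.

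Ribosomal and proteasome genes stayed near the median ratio. None of 86 cytosolic ribosomal protein genes and none of 32 proteasome genes was called, with median scaled log2 ratios of 0.10 and -0.22 (-0.20 and -0.52 as listed). Mitochondrial ribosomal proteins had 3 of 65 higher and a scaled median of 0.30, which was just below 0 as listed. Cytochrome P450 genes were spread in both directions, with 9 of 36 higher and 6 lower. Cyp4e3 had 85.7 FPKM with RU486 and 12.5 FPKM without, a scaled ratio of 8.45 (6.91 to 10.4), and in wild type 61.5 FPKM with RU486 and 169 FPKM without.

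Immune peptide genes were higher in the null library with RU486. Of 12 tested antimicrobial peptide genes 11 were higher and 1 lower, with a median scaled log2 ratio of 2.56. The Imd-dependent attacin AttA was listed at 92.9 FPKM with RU486 and 2.35 FPKM without, a scaled ratio of 48.7 (24.5 to 112), and its neighbour AttB had 67.2 and 3.64 FPKM. These are near-identical copies between which the counting could divide fragments. Metchnikowin (Mtk) had 1018 FPKM with RU486 and 201 FPKM without, drosomycin (Drs) 1342 and 419 FPKM, and the cecropin CecB 23.3 and 2.20 FPKM. AttA, AttB and CecB reached 10 FPKM only with RU486, so by the filter they could not be called lower. Dpt and DptB, the diptericins, were listed at 1418 and 696 FPKM with RU486, against 343 and 167 FPKM without. The exception was dro5 (Drsl5), a drosomycin-like gene, at 21.6 FPKM with RU486 and 2000 FPKM without, and the related dro2 was listed at 0 with RU486 and at 27.6 FPKM without.

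Bomanins, short secreted peptides induced by Toll, and related immune-induced molecules were higher in 8 of 10 cases. IM1 (BomS1) had 119 FPKM with RU486 and 6.44 FPKM without, a scaled ratio of 22.8 (10.4 to 59.7). IM3 (BomS3) had 462 FPKM with RU486 and 59.5 FPKM without, a scaled ratio of 9.55 (7.86 to 11.7). IM1, IM2, IM3, CG16836 and CG15068 were 5 consecutive called genes among the tested members in chromosome order. The Turandot stress peptides Victoria and TotC were higher, at 69.5 and 104 FPKM with RU486, against 2.95 and 14.1 FPKM without. TotA, at 1553 FPKM with RU486 and 1289 FPKM without, was not called. IM1 and Victoria reached 10 FPKM only with RU486, so by the filter they could not be called lower.

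The pathway components upstream of these peptides were mostly not called. Of 26 Imd and Toll genes 1 was higher and 4 lower, with a median scaled log2 ratio of -0.04 (-0.34 as listed). The lower genes were the peptidoglycan amidases PGRP-SC2 (8.33 FPKM with RU486 and 273 FPKM without), PGRP-LB (7.66 and 28.7 FPKM), PGRP-SC1a and PGRP-SC1b. Enzymes of this kind cleave peptidoglycan and restrain Imd signaling, and the PGRP-SC genes are known from the gut. PGRP-SB1 was the higher gene, at 197 FPKM with RU486 and 86.0 FPKM without. Hemocyte markers, which could carry immune transcripts, summed to 715 FPKM with RU486 and 482 FPKM without. Of 9 tested 2 were higher, the collagen IV genes vkg (86.3 and 16.1 FPKM) and Cg25C (174 and 42.6 FPKM), which the fat body also makes and which carried most of the difference between the sums. The median scaled log2 ratio of the 9 was -0.16 (-0.46 as listed), with 5 of 9 below 0. The blood cell gene nimC1 was listed at 0.551 FPKM with RU486 and 1.58 FPKM without, and lz at 0 in both libraries. The part of hemocytes in the peptide values was not tested.

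**Figure D3:**
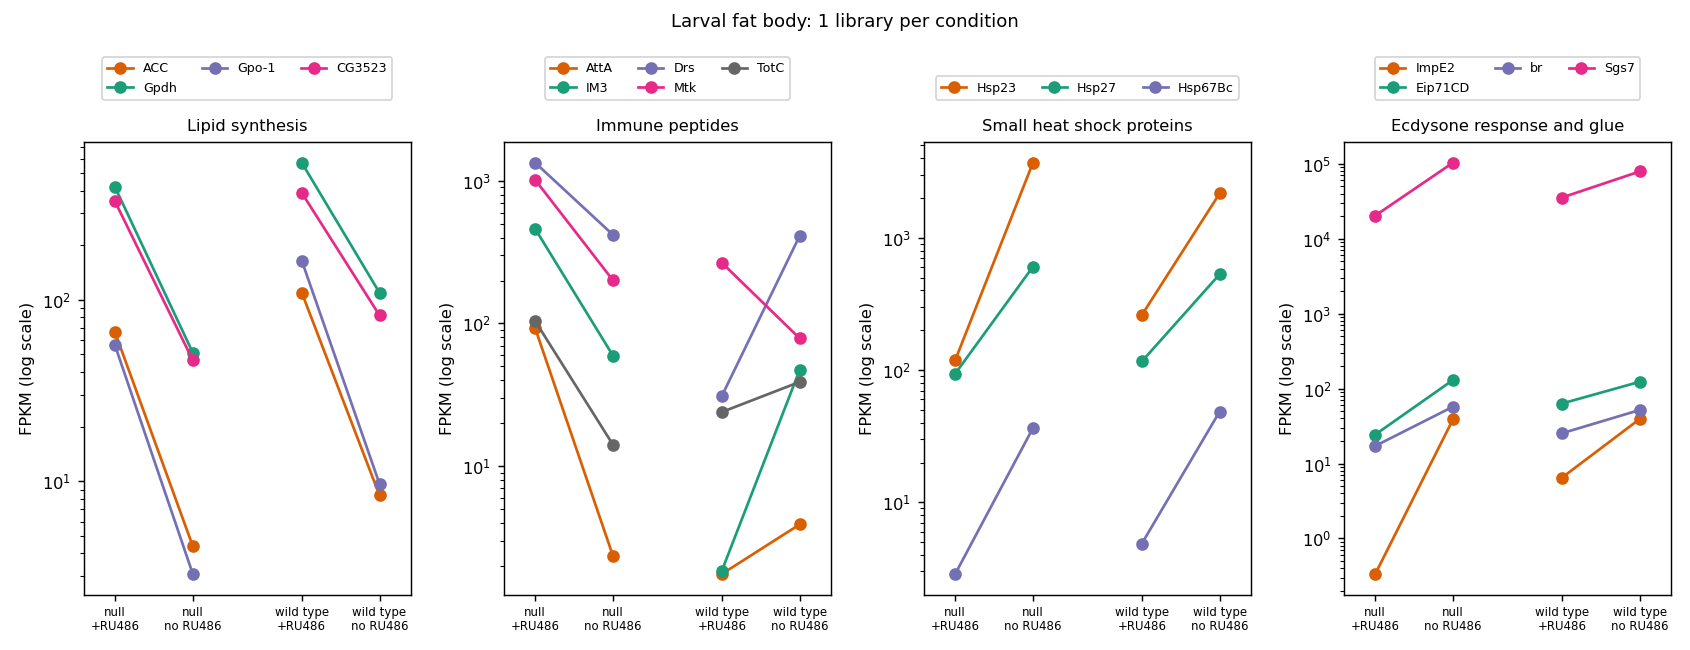
FPKM on a log scale of genes named in the text, with 1 point per library and lines joining the 2 libraries of a genotype, null left of wild type and with RU486 left of without. Lipid synthesis genes and small heat shock genes slope the same way in both genotypes, whereas AttA, IM3, Drs and TotC slope one way in PGAM5 null larvae and the other way in wild type.

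In wild-type larvae several of these peptides had the opposite order. Drs was listed at 31.0 FPKM with RU486 and 411 FPKM without, IM3 at 1.84 and 47.0 FPKM, and IM2 at 1.17 and 19.5 FPKM. Of 7 Bomanins and related molecules tested in wild type 1 was higher and 4 lower, and of 8 antimicrobial peptide genes 3 were higher and 1 lower. Of each list 7 genes were tested in both genotypes. Their median scaled log2 ratios in null and wild type were 2.36 and -1.12 for Bomanins, and 2.36 and 0.36 for antimicrobial peptides. By sum the Bomanin list was higher with RU486 in both genotypes. It had 5747 and 1491 FPKM with and without RU486 in null larvae, and 7100 and 1777 FPKM in wild type. Mtk had the same order in both genotypes, with 267 FPKM with RU486 and 78.6 FPKM without in wild type. The 18 antimicrobial peptide genes summed to 5353 FPKM in null larvae with RU486 and 3344 FPKM in null larvae without, against 577 and 805 FPKM in wild type with and without RU486. In null larvae without RU486 most of that sum was dro5, the gene called lower, so the sums understate the difference of the other genes. Each of these values is from 1 library.

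Gut markers were lower in 26 of 28 tested cases and higher in none, with a median scaled log2 ratio of -4.93, and 6 more were listed at 0 with RU486. Jon66Ci, a serine protease of the larval midgut, was listed at 0.196 FPKM with RU486 and 329 FPKM without, a scaled ratio of 0.000734 (7.83e-07 to 0.00681). In wild type it had 0.171 FPKM with RU486 and 0 without, so it was high only in the null library without RU486. Peritrophin-15a, a protein of the peritrophic matrix that lines the gut, had 2.93 FPKM with RU486 and 1543 FPKM without. Among the 12 lowest ratios were also the mucin genes Muc96D (0.195 and 97.6 FPKM) and Muc26B (0.172 and 78.7 FPKM) and the lipase gene mag (0.198 and 157 FPKM). The 45 gut markers summed to 1407 FPKM in the null library with RU486 and 18914 FPKM in the null library without, against 14918 and 16359 FPKM in wild type with and without RU486. The null library with RU486 thus had the lowest summed gut marker level of the 4 larval libraries. In null larvae 10 gut markers were at 0 with RU486 and none without it, and in wild type 6 with RU486 and 11 without. The null library with RU486 was therefore lowest by the sum but not by the number of markers at 0.

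Muscle and cuticle markers went the other way. Of 16 muscle genes 8 were higher and none lower, with a median scaled log2 ratio of 1.30. Mhc, myosin heavy chain, was listed at 24.4 FPKM with RU486 and 5.08 FPKM without, and Act57B, a larval muscle actin, at 351 and 128 FPKM. The list summed to 1340 FPKM in null larvae with RU486 and 665 FPKM in null larvae without, against 611 and 1132 FPKM in wild type with and without RU486. Of 26 trachea, cuticle and epidermis genes 15 were higher and 6 lower. Cpr65Ax1 and Cpr65Ax2, near-identical cuticle protein genes, had 57.8 and 58.1 FPKM with RU486, against 0.790 and 0.794 FPKM without, which is about 1 fragment each and leaves the ratio wide (scaled 90.1, interval 14.9 to 4251 for Cpr65Ax1). They belong to a run of 7 consecutive higher genes of the cuticle cluster. The cuticle list summed to 9189 FPKM with RU486 and 7188 FPKM without in null larvae, against 6130 and 11852 FPKM in wild type. Malpighian tubule markers summed to 111 FPKM with RU486 and 77.1 FPKM without, and 2 of 2 tested were higher.

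**Figure D4:**
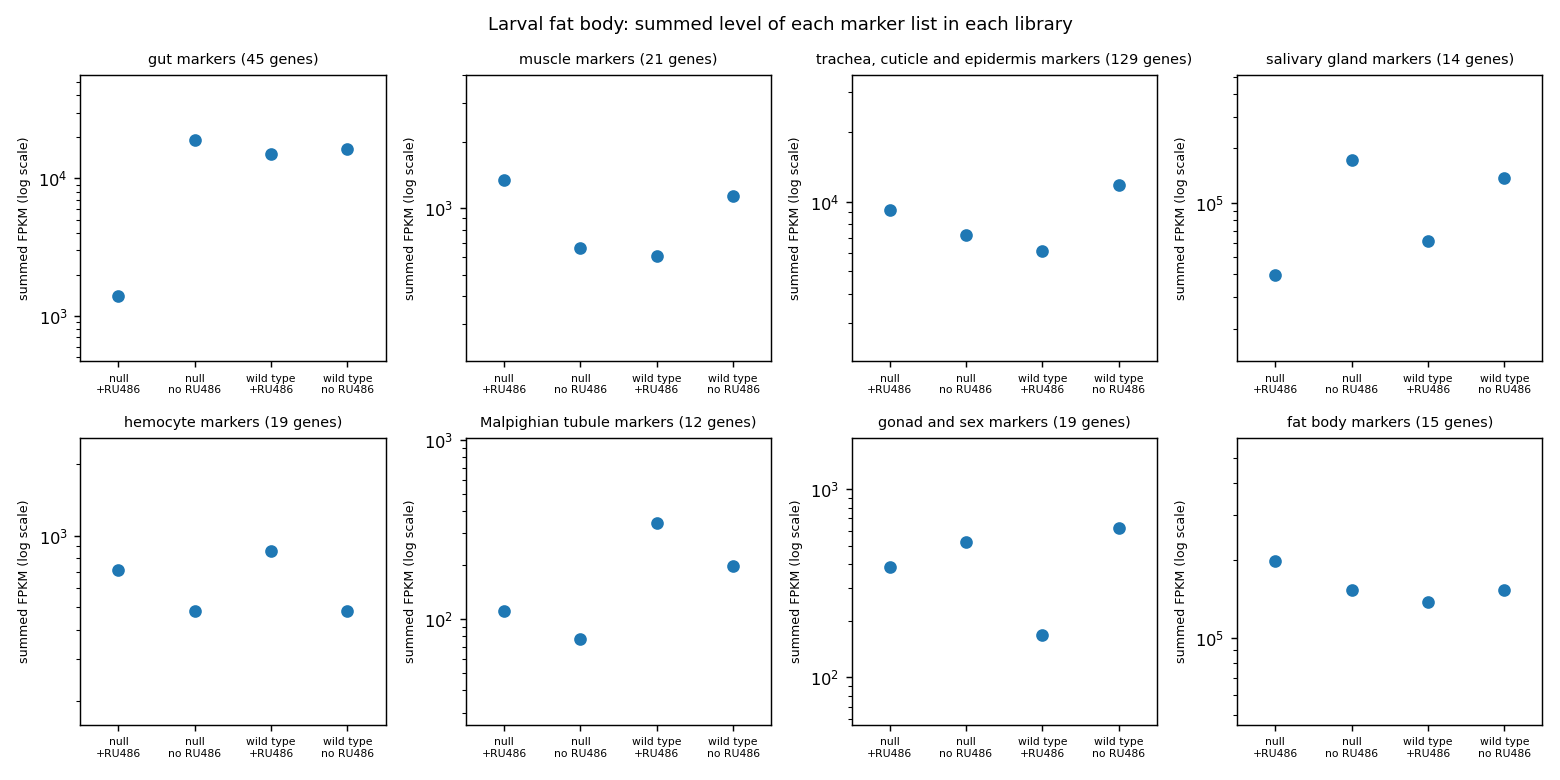
Summed FPKM of each marker list on a log scale in the 4 larval libraries, PGAM5 null left of wild type and with RU486 left of without. Gut markers are low in the null library with RU486 (1407 FPKM against 14918 to 18914 FPKM elsewhere), the salivary gland sum is lower with RU486 in both genotypes, and fat body markers lie between 138098 and 199110 FPKM. The lowest fat body sum, in wild type with RU486, includes Lsp1beta listed at 0, which can be a failed estimate.

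Genes of the other-tissue lists made up 9.12% of the higher calls and 7.21% of the lower calls. Their share of all tested members was smaller than either. In both directions these genes were therefore called more often than the background of 6.10% higher and 10.2% lower. Without them 279 genes were higher and 477 lower, and the median ratio was 0.813. Called genes shared by these and the other lists were Mal-A1 (sugar handling), Sgs3 (ecdysone response) and Uro (nitrogen handling). The part of unlisted genes of gut or body wall in the remaining calls was not tested.

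The highest ratios outside the cuticle and immune groups belonged to CG11659 and CG6300, neighbouring acyl-CoA synthetase-like genes. CG11659 was listed at 16.1 FPKM with RU486 and 0.113 FPKM without, a scaled ratio of 176 (30.7 to 7194), and CG6300 at 14.5 and 0.166 FPKM, a scaled ratio of 108 (24.2 to 1571). The values without RU486 are about 1 fragment, so only the lower bounds are informative. In wild type the pair had 32.8 and 20.1 FPKM with RU486, against 1.84 and 1.19 FPKM without. More generally, 4833 tested members could be placed, of which 293 were higher and 498 lower. Of these, 24.2% of the higher and 37.8% of the lower genes had a neighbour among the tested members with the same call. The share to be met by chance rises with the number of called genes and was not computed. These percentages alone therefore do not measure clustering or rank lower genes above higher ones. Runs of consecutive lower genes included 8 genes of the trypsin cluster with CG13202, 5 from Hsp67Ba to CG4080, 5 from CG5770 to CG10912, 5 from CG6981 to CG6933, and 4 from Sgs8 to Mob2.

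Members listed at 0 in one library have no ratio. There were 97, of which 79 were at 0 with RU486 and 18 at 0 without, and 39 were short RNA genes. CG14300 and CG34282 had 779 and 645 FPKM without RU486 and 0 with it, and in wild type 208 and 209 FPKM with RU486 and 0 without. CG11912 had 431 FPKM and CG6283 294 FPKM without RU486, with 0 in the other library. The snoRNA genes snoRNA:Me28S-C2645b and snoRNA:Me18S-A425 went the other way, at 1276 and 848 FPKM with RU486 and 0 without, and both were at 0 in wild type.

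The calls were set beside those of wild-type larvae. Among 4777 genes tested in both pairs, 142 were higher in both, 51.6% of the 275 higher in PGAM5 null larvae and 69.6% of the 204 higher in wild type. By the same rule 117 were lower in both, 27.0% of the 434 lower in null larvae and 12.6% of the 926 lower in wild type. Over all genes tested in wild type 5.11% were higher and 22.0% lower, and over all tested in null larvae 6.10% and 10.2%. The overlap of lower calls depended on the scaling. As listed, the count of genes lower in both larval pairs was 332, or 49.7% of those lower in null larvae. That of genes higher in both larval pairs stayed at 142. The share of lower genes in wild type as listed is not given here. The 22.0% is by the stricter rule and is not the background of the 49.7%. No test of the difference between these shares was run. Another 9 were higher in null and lower in wild type (3.27% of the 275), and 17 were lower in null and higher in wild type (3.92% of the 434). Neither share exceeded that of the same wild-type call over all genes tested in wild type. Across these genes the scaled log2 ratios of the 2 pairs had a Pearson's r of 0.32 and a Spearman's rho of 0.56, as a description over genes, which are not independent replicates. The wild-type pair differed in other tissues of its own. Gonad and sex markers were lower there in 7 of 9 cases, with a median of -2.44, and in null larvae in 1 of 9, with a median of -0.12. The sperm tail gene dj, for example, had 37.5 FPKM with RU486 and 28.6 FPKM without in null larvae, and 5.67 and 48.4 FPKM in wild type.

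**Figure D5:**
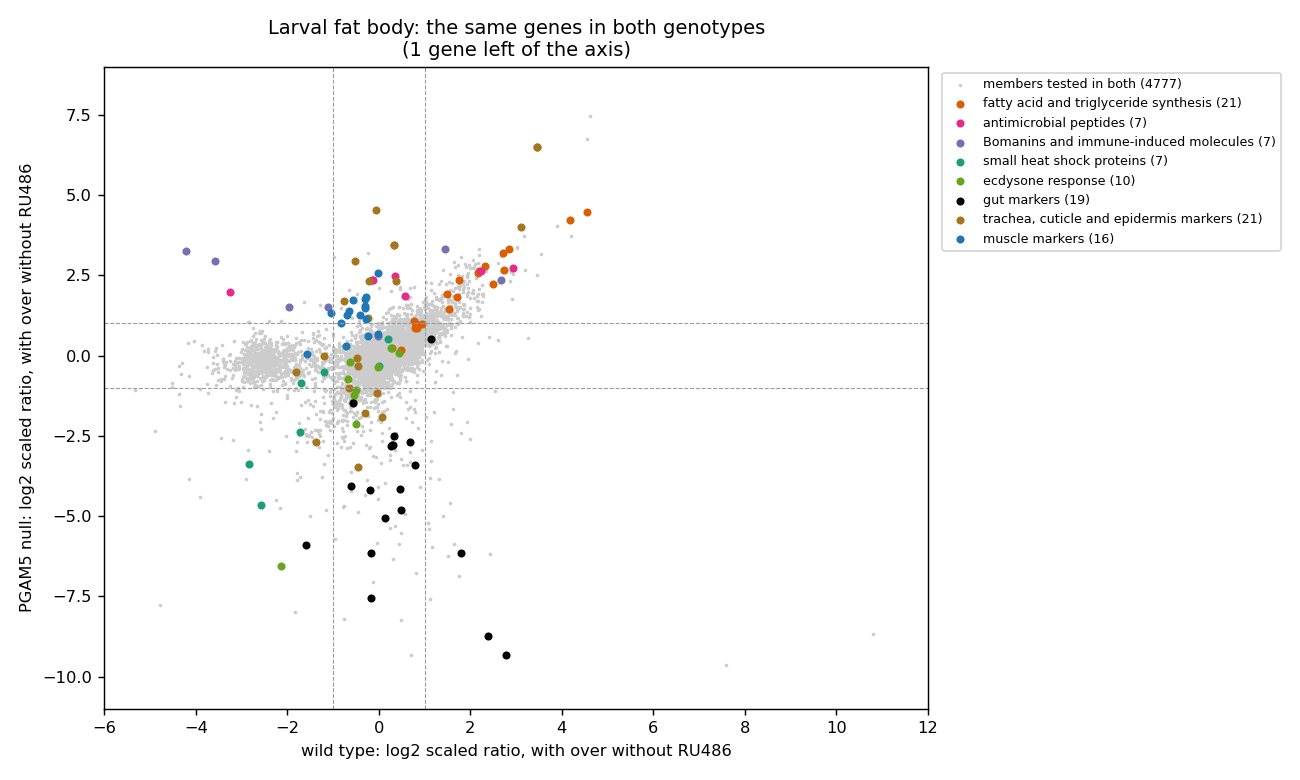
Each point is a gene tested in both larval pairs, with its log2 scaled ratio in wild type on the x axis and in PGAM5 null on the y axis, and dashed lines at 2-fold. Lipid synthesis genes lie on the shared diagonal, 4 Bomanins or related molecules at upper left, and gut markers at the bottom.

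In PGAM5 null adults that had received RU486 as larvae, the calls were fewer. 3.71% of 4831 genes were higher and 4.02% lower. Of the 235 genes higher in null larvae and tested in adults 2 were higher and 10 lower in adults, and of the 256 lower in larvae 33 were lower and 25 higher. ACC had 392 FPKM with and 453 FPKM without larval RU486 in adults, Gpdh 964 and 1059 FPKM, and IM3 1738 and 1412 FPKM. None of the 25 lipid synthesis genes tested in adults was called.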

How the data were processed

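Total RNA of dissected fat body from larvae and adults was made into TruSeq libraries. The authors mapped the reads to the Drosophila genome and computed expression with Bowtie, TopHat and Cufflinks, whose versions are not given in the sources used here, and deposited FPKM per gene. FPKM carries no counts, so depth was estimated from 8091 single-transcript genes as the value at which most low values (80.8% to 84.8%) came within 0.1 of whole fragments. Columns were mapped to samples by their headers, and 2 tables of 15603 genes were used. The adult table has a header line naming larval fat body and was mapped to the adult samples by its sheet name. Columns of other samples numbered 0.

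Ratios of FPKM were taken with over without RU486 for members above 0 in both libraries and were divided by their median. No pseudocount was used in the main values. Transcript lengths came from a reference annotation by FlyBase identifier (14927 matched). The procedure was checked on simulated libraries. Calculations ran in Python 3.11.15 with scipy 1.17.1, pandas 2.3.3 and numpy 2.4.6, and plots in matplotlib 3.10.9.

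Members, lists and tests were chosen with earlier results of these data known. The 48 lists hold 1360 matched of 1363 written entries, and 1 wrong alias, of FASN1, was corrected after the values had been seen. Genes are named by rule: the 12 highest and 12 lowest scaled ratios, up to 4 members of each list with the largest change, Pgam5 and the pathway genes, the 6 highest members at 0 in one library, and the 8 at each end of the difference from wild type. Other genes, which are named as list members, neighbours or adult values, were chosen after their values were seen. Calls were recomputed under other scalings, filters and a pseudocount of 1. Promoter motifs were planned but not run, and no sequence or coordinate is given.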

Additional observations from a re-analysis of the deposited data

Results flagged for a closer look

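For 9 genes taken up by the naming rule the PGAM5 null pair and the wild-type pair passed 2-fold in opposite directions, both as listed and after scaling. The naming rule takes up the 8 genes at each end of the difference between the pairs, so opposite directions are partly built into this set. Among all 4777 genes tested in both pairs, 9 were higher in null and lower in wild type, and 17 the reverse. With 1 library per condition the difference between the genotypes was not tested. Higher in null and lower in wild type with RU486 were IM2 (scaled ratio 7.78 in null, 0.0831 in wild type), IM3 (9.55 and 0.0541) and Drs (3.95 and 0.104). CG16836, named only as a neighbour of IM3, met the same condition (2.87 and 0.258). Lower in null and higher in wild type were Peritrophin-15b (0.00155 and 6.85), Peritrophin-15a (0.00234 and 5.22), Mal-A1 (0.0141 and 3.47), CG7017 (0.00126 and 193), Muc96D (0.00246 and 1778) and CG7567 (0.00855 and 3.38). All 6 rested on about 3 fragments or fewer in null larvae with RU486. In wild type without RU486 CG7017 and Muc96D had about 2 fragments each, and their wild-type intervals were 53.8 to 1529 and 492 to 14678. The 45 gut markers, which include Peritrophin-15a, Peritrophin-15b and Mal-A1, summed to 1407 FPKM with RU486 and 18914 FPKM without in null larvae, the same order as these 6 genes. In wild type they summed to 14918 FPKM with RU486 and 16359 FPKM without, whereas all 6 genes were higher with RU486. The part of gut RNA in the null values was not tested.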

How the results depend on the processing

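No paired analysis was possible because each condition has 1 library, and no library could be left out. Promoter motifs were not run. The count of genes at least 2-fold higher, 307, was 493 with median-ratio scaling only, 479 with upper-quartile scaling, 477 with library sums without the 10 most abundant genes, 192 with a filter of 10 FPKM without RU486 or in both libraries, 582 at 1 FPKM and 203 at 30 FPKM. The count of genes at least 2-fold lower, 513, was 229, 1150 and 289 with the filter in both libraries, at 1 FPKM and at 30 FPKM. Counts as listed only were 307 higher and 764 lower, so scaling moved the split. At 3-fold the 145 higher genes were 75, 75, 273 and 95 under the 4 filters in the same order, and the 292 lower genes were 108, 595 and 185. The count of genes higher in both larval pairs, 142, was 278 with median-ratio scaling only, and that of genes lower in both larval pairs, 117, was 332 as listed (49.7% of those lower in null larvae). No background as listed is given for that share.

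Of 172 list medians recomputed 14 changed sign. As listed, the medians were -0.25 for mitophagy and mitochondrial dynamics, -0.000938 for mitochondrial ribosomal proteins, -0.20 for cytosolic ribosomal proteins, -0.13 for ATF4, serine and one-carbon genes, -0.10 for cytosolic chaperones, -0.29 for redox enzymes (-0.0186 with upper-quartile scaling), -0.13 for glutathione S-transferases, -0.23 for JAK/STAT, -0.27 for JNK and -0.22 for insulin, FoxO and TOR. With a filter of 1 FPKM they were 0.37 for UDP-glycosyltransferases and 0.0681 for gonad and sex markers, and -0.0136 for the set given as median log2 ratio: JAK/STAT. Leaving out the other-tissue genes or the short RNA genes, chosen after seeing the data, kept the 2-fold and 3-fold counts within 1.5 times. It was not run for the counts shared by both larval pairs. Below about 10 FPKM few fragments support a value, and differences between dissections are not covered by any interval.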
